A study of Mus musculus with 6 samples.

Results

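The genes described here are the endogenous opioid system of the mouse, as expressed in the pre-limbic cortex (PLc), a region on the medial face of the prefrontal cortex. They are the 4 genes for the opioid peptide precursors, Penk, Pdyn, Pomc and Pnoc, and the 4 genes for the receptors of these peptides, Oprm1, Oprd1, Oprk1 and Oprl1. They were chosen by function, by gene name, and make up 8 of the 37620 genes listed. C57Bl/6 mice aged 9 weeks received an intraperitoneal injection each day for 5 days, either of ketamine at 30 mg/kg, an NMDA receptor blocker used at this schedule as a sub-chronic model of psychosis, or of saline vehicle. The PLc was dissected 2 days after the last injection, and each mouse gave 1 RNA-seq library. Mice 1, 6 and 10 received saline (n = 3) and mice 3, 5 and 9 received ketamine (n = 3), and by the labels the groups differ in the injected agent alone. Values are normalized counts, which are reads per gene divided by a size factor for the library, and wherever a gene's values are listed they follow that order of mice.

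Opioid peptides are cut from larger precursor proteins in the secretory pathway, at pairs of basic residues. Penk encodes proenkephalin, the source of the enkephalins, which act mainly at the delta receptor (Oprd1) and the mu receptor (Oprm1). Pdyn encodes prodynorphin, whose dynorphins act mainly at the kappa receptor (Oprk1). Pomc encodes pro-opiomelanocortin, the source of beta-endorphin and of the melanocortins, and Pnoc encodes prepronociceptin, whose peptide nociceptin acts at Oprl1. All of these receptors couple to inhibitory G proteins, close calcium channels, open inwardly rectifying potassium channels and slow adenylyl cyclase. In the cortex the peptides are made mainly by subsets of neurons, while Penk and Pdyn are best known as markers of the indirect and direct pathway neurons of the striatum. Penk is also made by interneurons of the olfactory bulb.

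The sequences that define the family are the short stretches of coding DNA for the opioid cores, the first residues of each opioid peptide. These stretches count the opioid cores of a precursor and not all the peptides it yields. They were read from the GENCODE coding transcripts, and each matched the mm9 genome. The Penk coding sequence of 268 codons holds 7 cores, 6 that end in a methionine codon and 1 that ends in a leucine codon, and 5 of the 7 have a pair of basic codons on both sides. The Pdyn coding sequence of 248 codons holds 3 cores, all with the leucine ending and all with basic pairs on both sides. Pomc (235 codons) holds 1 core with the methionine ending, at the start of beta-endorphin, and Pnoc (187 codons) holds 1 nociceptin core. The first and the leucine-type core of Penk, the 3 of Pdyn and the single cores of the other precursors are shown 5′ to 3′ on the coding strand. Capitals mark the 15 bases of the core and lower case the 6 bases on either side, where a basic pair precedes each core shown and also follows it in Penk and Pdyn, but not in Pomc or Pnoc.
Penk core 1, methionine type, chr4:4061475-4061501, minus strand: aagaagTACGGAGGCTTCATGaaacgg
Penk core 6, leucine type, chr4:4061082-4061108, minus strand: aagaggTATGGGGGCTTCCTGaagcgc
Pdyn core 1, leucine type, chr2:129513968-129513994, minus strand: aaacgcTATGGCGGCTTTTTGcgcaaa
Pdyn core 2, leucine type, chr2:129513860-129513886, minus strand: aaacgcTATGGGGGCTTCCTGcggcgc
Pdyn core 3, leucine type, chr2:129513803-129513829, minus strand: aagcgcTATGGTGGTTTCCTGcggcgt
Pomc core, methionine type, chr12:3960367-3960393, plus strand: aagcgtTACGGTGGCTTCATGacctcc
Pnoc core, nociceptin type, chr14:66023709-66023735, minus strand: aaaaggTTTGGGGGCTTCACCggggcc

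The libraries held between 26273436 and 32643726 reads, recovered from the normalized counts as whole numbers. Log2(normalized count + 1) was compared between the groups with limma in 16127 genes whose mean reached 10 normalized counts, and all 8 opioid genes passed this filter. Two-sided p-values were adjusted over all genes tested by the Benjamini-Hochberg method. Limma called 0 of these genes at an adjusted p under 0.05 (0% of those tested; 937 had an unadjusted p under 0.05), edgeR called 0 (0%; 1007 unadjusted), and DESeq2 called 145 higher in ketamine (0.899%) and 37 lower (0.229%; 1054 unadjusted in either direction). For 918 genes (5.69%) every ketamine mouse lay above every saline mouse, and for 751 (4.66%) every ketamine mouse lay below. Slc17a7, a marker of cortical excitatory neurons named here outside the gene rule, stood between 22152 and 49417 normalized counts in the 6 mice, so it was present in each library. It does not mark the PLc in particular, and other tissue could be present beside it.

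Penk separated the groups, with all ketamine mice above all saline mice. Its values were 1359, 1330 and 916 normalized counts in the saline mice and 12073, 5692 and 3377 in the ketamine mice. The groups did not overlap, mouse 3 stood above mouse 5 and mouse 5 above mouse 9, and the lowest ketamine value was above the highest saline value. The means were 1202 ± 248 and 7048 ± 4504 normalized counts (SD, n = 3 each), a ratio of 5.86. The log2 fold change was 2.38 (standard error 0.43, 95% interval 1.36 to 3.40). By limma the unadjusted p was 0.000836 and the adjusted p 0.283, so Penk did not pass the main test. DESeq2 called it on the recovered reads, with a log2 fold change of 2.56 (standard error 0.43) and an adjusted p of 1.24e-06, whereas edgeR gave 2.57 with an adjusted p of 0.304. The exact permutation test gave p = 0.1, the smallest that 3 mice against 3 allow. In tissue RNA of this kind, more cells of a type and more RNA per cell cannot be told apart. Penk (ENSMUSG00000045573) lies on chromosome 4 of mm9 from 4060678 to 4065966 on the minus strand, and shares 233 exon bases with A830012C17Rik on the other strand, which stood between 0.96 and 10.8 normalized counts.

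**Figure D1:**
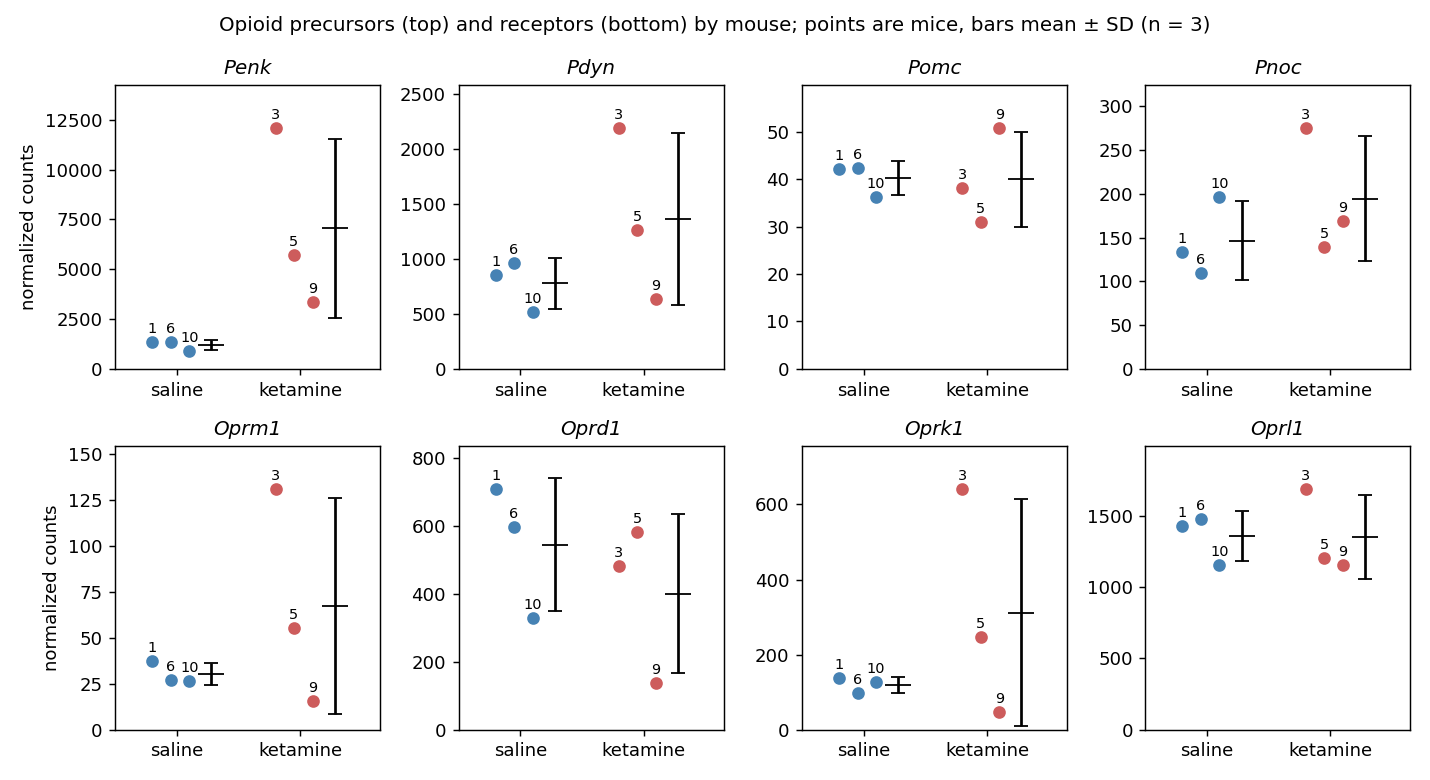
Normalized counts of the 4 precursor genes (top) and the 4 receptor genes (bottom) in each mouse, with the mouse number above each point and the mean ± SD of 3 mice beside it. The 3 ketamine mice lie above the 3 saline mice for Penk, and the groups overlap for the other 7 genes.

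Markers of striatal projection neurons were high in ketamine mice 3 and 5, and the mean log2 level of olfactory bulb markers was highest in mouse 9, with mice 3 and 5 also above the saline mice, mouse 5 by little. All 19 tested genes of a list of 20 striatal markers had a log2 fold change above 0, with a median of 1.40. DESeq2 called 4 of them higher and 0 lower, against 0.899% and 0.229% of all genes tested. The list's summed level ran from 10879 to 12713 normalized counts in saline mice and from 8269 to 63035 in ketamine mice, and none of its genes was at 0 in every mouse. Relative to the saline mean, the mean log2 level of the list was 3.29 in mouse 3 and 2.23 in mouse 5, but -0.34 in mouse 9. Adora2a, the adenosine receptor of indirect pathway neurons, stood at 67.0, 74.3 and 93.3 normalized counts in saline and 2395, 965 and 127 in ketamine. In Drd2, the dopamine receptor of the same neurons, mouse 9 lay within the saline range, at 25.4 normalized counts against 22.2 to 221. In the mean of the striatal list mouse 9 was close to the saline mice, while its Penk level was 1.51 above the saline mean on the log2 scale. Its striatal genes went both ways. For 5 of the 19 tested genes, Adora2a and Tac1 among them, all ketamine mice, mouse 9 included, lay above all saline mice. For 0 they all lay below, against 5.69% and 4.66% of all genes tested. Pde10a stood at 764 normalized counts in mouse 9 and 1696 to 2625 in saline. Over the 6 mice, Pearson's r of Penk with the list mean was 0.843 (Spearman's rho 0.429), as a description. With the olfactory bulb list r was 0.525 (rho 0.60), and with a list of cortical interneuron markers 0.530 (rho 0.771). With claustrum and layer 6b markers r was 0.401 (rho 0.029), and with cortical excitatory markers -0.657 (rho -0.486).

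Of the 12 olfactory bulb markers, 10 had a log2 fold change above 0 (median 2.40). DESeq2 called 4 of them higher and 0 lower, against 0.899% and 0.229% of all genes tested. For 5 of the 12 all ketamine mice lay above all saline mice, and for 0 below, against 5.69% and 4.66% of all genes tested. The summed level of the 12 markers was 16965 to 17522 normalized counts in saline and 14636 to 27348 in ketamine. None of these markers was at 0 in every mouse. Most of that sum was Uchl1, a gene of neurons in general, and without it, a choice made after the values were seen, the other 11 summed to 1517, 1424 and 3621 normalized counts in saline and 2973, 2634 and 11734 in ketamine, with saline mouse 10 above ketamine mice 3 and 5. Of these 11 genes, Trpc1, named after its values were seen, had a mean of 1075 normalized counts in saline and 894 in ketamine. It made up a large part of the sums of saline mice 1 and 6. Slc6a3 had a mean of 609 normalized counts in saline and 51.4 in ketamine. The sums of saline mice 1 and 6 place most of that saline level in mouse 10. The mean log2 level of this list relative to saline was 1.93, 1.26 and 3.53 in mice 3, 5 and 9, and 1.23 in saline mouse 10. Cdhr1, a cadherin-related protein of mitral and tufted cells, stood at 103, 120 and 90.0 normalized counts in saline and 900, 817 and 4006 in ketamine, and Tbx21, a transcription factor of the same cells, reached 362 in mouse 9 and at most 3.86 in saline. Mouse 9 was the highest mouse for bulb markers and the lowest ketamine mouse for Penk, while mice 3 and 5 were the highest for striatal markers (3.29 and 2.23) and for Penk. The part of either marker list in the Penk result was not tested. Without mice 3 and 5, the Penk log2 fold change of mouse 9 against the 3 saline mice was 1.51, and it lay between 1.89 and 2.81 with each single mouse left out.

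**Figure D2:**
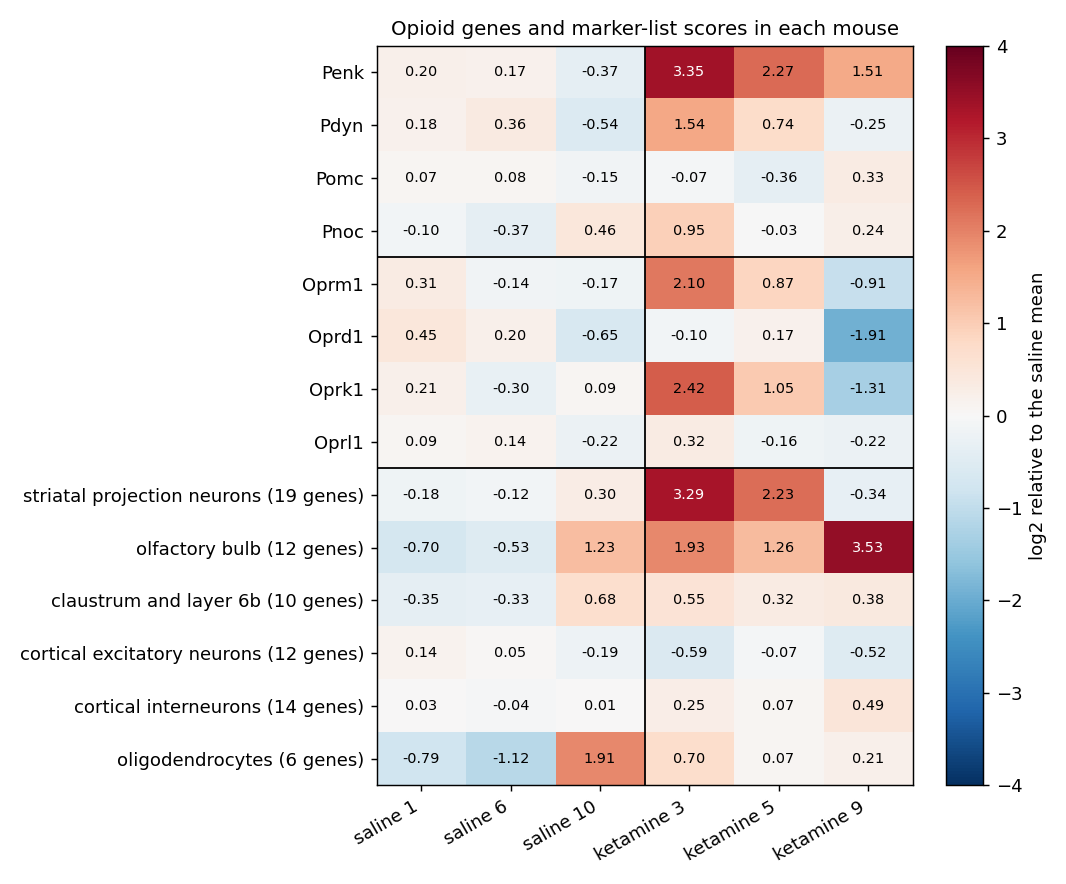
Log2 level of each opioid gene and mean log2 level of each marker list in each mouse, set against the saline mean, with colour from blue (lower) to red (higher). Penk is above 1.5 in all 3 ketamine mice, the striatal list is high in mice 3 and 5 only, and the olfactory bulb list is highest in mouse 9.

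Pdyn, the dynorphin precursor, was higher on average in ketamine, but the groups overlapped. Its values were 852, 965 and 518 normalized counts in saline and 2187, 1260 and 634 in ketamine, so that mice 3 and 5 lay above every saline mouse and mouse 9 lay within the saline range. The means were 778 ± 232 and 1360 ± 781. By limma the log2 fold change was 0.68 (standard error 0.45, 95% interval -0.38 to 1.73) with an unadjusted p of 0.174, and the adjusted p was 0.999, as for every opioid gene other than Penk. DESeq2 gave 0.81 with an adjusted p of 0.816, and the exact permutation test gave p = 0.4. For mouse 9 alone against saline the value was -0.25. Pdyn (ENSMUSG00000027400) lies on chromosome 2 from 129512301 to 129525580 on the minus strand, with no overlapping gene.

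The balance between the enkephalin and dynorphin precursors separated the groups in each mouse. The ratio of Penk to Pdyn normalized counts was 1.60, 1.38 and 1.77 in saline and 5.52, 4.52 and 5.33 in ketamine, a comparison chosen after the values were seen. These ratios are not corrected for transcript length and are read between mice only. The means were 1.58 ± 0.195 and 5.12 ± 0.532, a log2 difference of 1.70, and mouse 9 lay between the other ketamine mice. Per kilobase of exon, Penk made up 67.1%, 65.2% and 63.7% of the 4 precursors in saline and 88.7%, 86.6% and 85.2% in ketamine, whereas Pdyn made up 20.4% to 26.8% in saline and 9.05% to 10.8% in ketamine. The summed precursor level per exon kilobase ran from 880 to 1248 in saline and from 2426 to 8329 in ketamine. Neither these shares nor the sums overlapped between the groups, and both contain Penk.

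**Figure D3:**
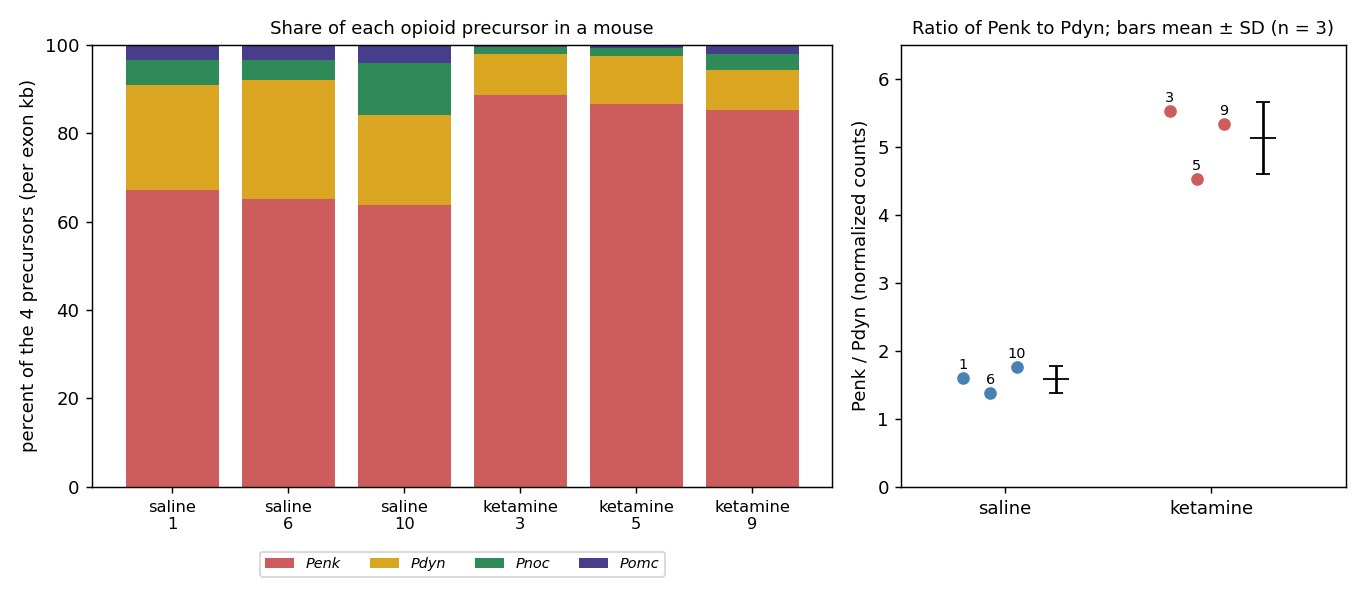
Share of each precursor in the sum of the 4 precursors per exon kilobase in each mouse (left, stacked bars, percent), and the ratio of Penk to Pdyn normalized counts with mean ± SD of 3 mice (right). Penk takes 63.7% to 67.1% in saline mice and 85.2% to 88.7% in ketamine mice, and the ratio is 1.38 to 1.77 against 4.52 to 5.52.

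Pomc, among the lowest of the family, had nearly equal means of 40.3 ± 3.51 and 40.0 ± 9.98 normalized counts. It stood at 42.1, 42.5 and 36.2 normalized counts in saline and 38.2, 31.0 and 50.8 in ketamine, and the groups overlapped. The log2 fold change was -0.03 (standard error 0.27, 95% interval -0.68 to 0.61, limma, unadjusted p = 0.904). The interval leaves room for changes of either sign, and the exact permutation p was 1.0. The main sources of Pomc in the head are the arcuate nucleus and the pituitary, and their markers differed in level. Agrp, a peptide of the arcuate nucleus, reached at most 3.63 normalized counts. Of the pituitary hormones, Prl reached 13.4 and Gh 52.7, both in saline mouse 1. Of 15 hypothalamic and pituitary markers, 6 were tested and 1 was at 0 in every mouse. Their summed level was 84.9 to 276 normalized counts in saline and 84.7 to 1744 in ketamine, the top of which was mouse 3, where Avp and Oxt, named after their values were seen, reached 569 and 909. The part of these markers in the Pomc values was not tested. Pomc (ENSMUSG00000020660) lies on chromosome 12 from 3954951 to 3960618 on the plus strand.

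Pnoc, the nociceptin precursor, had overlapping groups too. Its values were 133, 110 and 197 normalized counts in saline and 275, 139 and 169 in ketamine, so only mouse 3 stood above the saline range. The means were 147 ± 44.8 and 194 ± 71.5, with a log2 fold change of 0.39 (standard error 0.32, 95% interval -0.37 to 1.14, limma, unadjusted p = 0.267). The exact permutation p was 0.4. Pnoc (ENSMUSG00000045731) lies on chromosome 14 from 66019510 to 66044046 on the minus strand.

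None of the 4 receptor genes was called by limma, edgeR or DESeq2, and their groups overlapped throughout. Of the 8 opioid genes, 1 lay wholly higher in ketamine and 0 wholly lower, against 5.69% and 4.66% of all genes tested. Each receptor gene had a larger SD over the ketamine mice than over the saline mice, as did each precursor gene.

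Oprk1, the kappa receptor, had the widest 95% interval of the family. It stood at 137, 96.5 and 126 normalized counts in saline and 641, 247 and 47.1 in ketamine. Mice 3 and 5 were above every saline mouse and mouse 9 was below every saline mouse. The means of 120 ± 21.0 and 312 ± 302 corresponded to 0.72 on the log2 scale (standard error 0.84, 95% interval -1.24 to 2.68, limma, unadjusted p = 0.415). In DESeq2 the value was 1.39 (unadjusted p = 0.0444, adjusted p = 0.721), and the exact permutation p was 0.7. The sign turned without mouse 3, to -0.13, and for mouse 9 alone it was -1.31. Oprk1 (ENSMUSG00000025905) lies on chromosome 1 from 5578574 to 5596212 on the plus strand.

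Oprm1, the mu receptor, had a similar pattern over the mice at a lower depth. It stood at 37.4, 27.0 and 26.4 normalized counts in saline and 131, 55.5 and 15.4 in ketamine, which rest on 39, 28 and 24 reads and on 134, 59 and 17 reads. Mice 3 and 5 were again above, and mouse 9 below, every saline mouse. The log2 fold change was 0.69 (standard error 0.70, 95% interval -0.96 to 2.33, limma, unadjusted p = 0.358; exact permutation p = 0.6), and -0.02 without mouse 3. Over the 6 mice, Pearson's r of log2 levels between Oprm1 and Oprk1 was 0.989 (Spearman's rho 0.943), and r with the striatal list was 0.919 for Oprm1 and 0.924 for Oprk1. These points share libraries and groups, and the values are descriptions. Oprm1 (ENSMUSG00000000766) lies on chromosome 10 from 3308332 to 3588035 on the minus strand and shares 96 exon bases with Ipcef1 on the other strand, which stood between 2084 and 3797 normalized counts. The strand setting of the counting is not given in the sources used here, so the low Oprm1 counts are uncertain.

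Oprd1, the delta receptor, went the other way on average. Its values were 709, 597 and 329 normalized counts in saline and 483, 582 and 137 in ketamine, so that mice 3 and 5 lay within the saline range and mouse 9 below it. The means were 545 ± 195 and 401 ± 234, with a log2 fold change of -0.62 (standard error 0.56, 95% interval -1.93 to 0.70, limma, unadjusted p = 0.306). The exact permutation p was 0.5. Without mouse 9 the log2 fold change was 0.03, and for mouse 9 alone it was -1.91. Oprd1 (ENSMUSG00000050511) lies on chromosome 4 from 131666641 to 131700401 on the minus strand.

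Oprl1, the nociceptin receptor, had the narrowest 95% interval of the family. It stood at 1429, 1478 and 1153 normalized counts in saline and 1686, 1202 and 1154 in ketamine, and the groups overlapped. The means were 1354 ± 175 and 1347 ± 294, and the log2 fold change was -0.02 (standard error 0.19, 95% interval -0.46 to 0.42, limma, unadjusted p = 0.919). The exact permutation p was 1.0. Oprl1 (ENSMUSG00000027584) lies on chromosome 2 from 181449721 to 181455690 on the plus strand. Per exon kilobase it made up 65.5% to 74.8% of the 4 receptors in saline and 63.0% to 87.8% in ketamine. The summed receptor level per exon kilobase was 411 to 582 in saline and 350 to 679 in ketamine, so the receptor sums overlapped where the precursor sums did not.

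**Figure D4:**
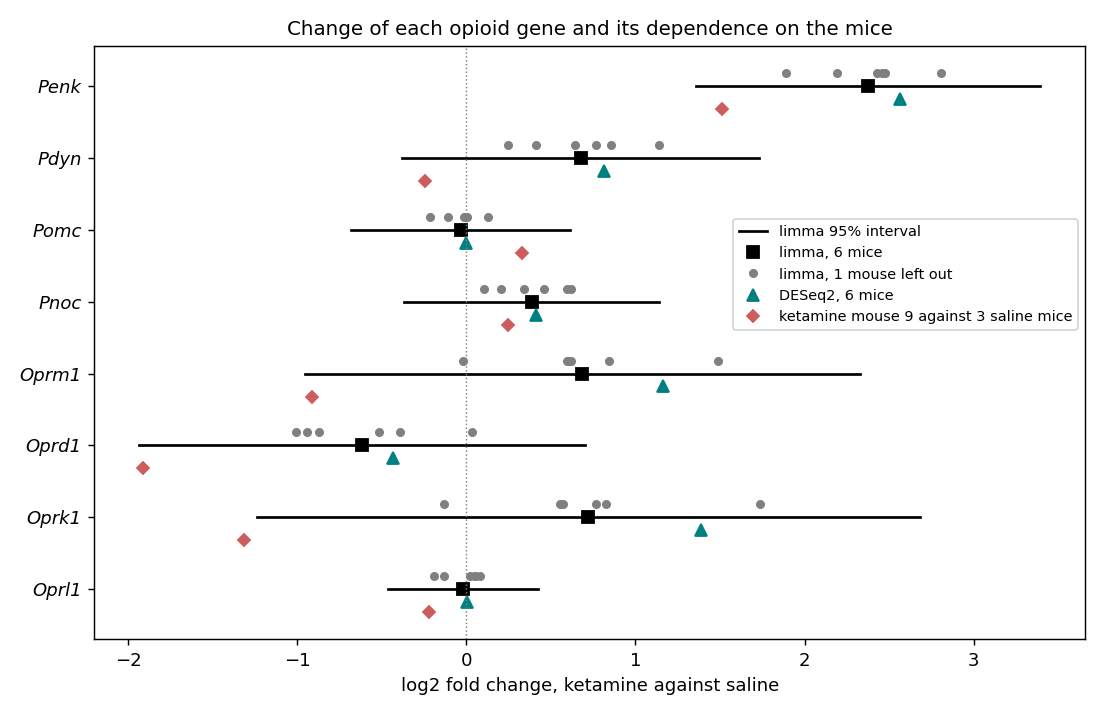
Log2 fold change of each opioid gene, ketamine against saline, from limma with its 95% interval (squares and lines), with each mouse left out in turn (grey points), from DESeq2 (triangles), and for ketamine mouse 9 alone against the 3 saline mice (diamonds). Penk lies above 0 under each of these, from 1.51 to 2.81, while mouse 9 alone puts Pdyn, Oprm1 and Oprk1 below 0.

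Levels were compared between genes per exon kilobase. In saline mice the mean level was 735 for Penk, 361 for Oprl1, 270 for Pdyn, 136 for Oprd1, 77.4 for Pnoc, 40.0 for Pomc, 17.5 for Oprk1 and 3.71 for Oprm1. Penk was thus the most abundant precursor and Oprl1 the most abundant receptor. Saline ranges overlapped between Oprl1 and Pdyn, and between Oprd1 and Pnoc, whereas the ranges of the other neighbours were separate. Within each saline mouse Oprl1 was above Pdyn, at 381, 394 and 307 against 295, 334 and 180. Oprd1 was above Pnoc in mice 1 and 6 but below it in mouse 10, at 81.9 against 104. Of the 8 genes, 6 had their highest value in ketamine mouse 3, while 3 had their lowest in ketamine mouse 9 and 3 in saline mouse 10.

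The genes whose log2 level followed each opioid gene most closely over the 6 mice were named by Pearson's r, as a description in which all points share these libraries. For Penk they were Accn4 (r = 0.993), Kirrel3 (0.992) and Ppp1r2 (0.987), and 53 genes had r above 0.95. For Pdyn they were Hfm1 (0.994), Gnb4 (0.989), which is also a claustrum marker of the lists used here, and Lhcgr (0.987). With the whole list of claustrum and layer 6b markers, r of Pdyn was 0.013. The closest to Oprk1 were Rgag1 (0.998), Pde11a (0.995) and Scn4b (0.994), the last a sodium channel subunit of the striatal list, and 112 genes had r above 0.95. Oprm1 went with Zdbf2 and Xpr1 (0.996 each) and 6720456H20Rik (0.994). Oprd1 had Atp8a1 (0.999), Mtmr3 (0.998) and Trpc1 (0.998) as closest genes, the last also on the olfactory bulb list. With that whole list r of Oprd1 was -0.855, and with the cortical excitatory list 0.671. For Oprd1, 721 genes had r above 0.95, the most of any member. Oprl1 had the fewest, 8, led by Pcdhb10 (0.987), Wdr65 (0.975) and Prmt2 (0.966). Pomc was closest to Cacybp (0.999), Osgin1 (0.995) and Eif4a2 (0.990), and Pnoc to Fam131c (0.997), Xrcc2 (0.996) and Erlin2 (0.988).

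The other genes of opioid signalling lay on both sides of 0. Of 60 genes in 7 lists, 57 were tested, and limma, edgeR and DESeq2 called 0 of them (unadjusted p under 0.05 for 4, 4 and 10 genes). Their log2 fold change was above 0 for 28 and below 0 for 29, with a median of -0.01, beside -0.01 over all genes tested. Groups did not overlap for 3 genes that were higher in ketamine and 2 that were lower, against 5.69% and 4.66% of all genes.

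Among 8 genes of precursor processing, 2 were above 0 and 6 below, with a median log2 fold change of -0.13. Pcsk2, the convertase that cuts proenkephalin and prodynorphin to their small peptides, stood at 22177, 19602 and 9865 normalized counts in saline and 9610, 13547 and 9305 in ketamine. Saline mouse 10 lay among the ketamine mice, and the log2 fold change was -0.61 (limma, adjusted p = 0.969). Pcsk1, the convertase that acts earlier, gave -0.38, Scg5, the chaperone of Pcsk2, gave -0.26, and Cpe, the carboxypeptidase that trims the basic residues, gave -0.02. None of these passed the test. In 10 genes of peptide breakdown and scavenging, 4 were above 0 and 6 below (median -0.06). Mme, the membrane peptidase that degrades enkephalins, stood at 174, 102 and 163 normalized counts in saline and 643, 353 and 63.4 in ketamine, with mice 3 and 5 above and mouse 9 below the saline mice (log2 fold change 0.77, limma, adjusted p = 0.999). Ece2, a peptidase named because its groups did not overlap, ran from 508 to 771 normalized counts in saline and from 843 to 1295 in ketamine (0.68, adjusted p = 0.725).

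Downstream of the receptors, the median log2 fold change was 0.05 over the 5 inhibitory G protein genes, and the neuronal Gnao1 gave -0.08. The 9 channel and cyclase genes had a median of -0.39, with 3 above 0 and 6 below. The potassium channel subunits gave -0.38 for Kcnj3, -0.98 for Kcnj6, -0.47 for Kcnj9 and 2.46 for Kcnj5, named after its values were seen, which stood at 0, 1.93 and 18.7 normalized counts in saline and 97.9, 6.59 and 11.8 in ketamine. All had overlapping groups and an adjusted p of at least 0.922 by limma. Adcy1, a calcium-stimulated cyclase, and Adcy8, another, were named because their groups did not overlap. Adcy1 ran from 23038 to 29640 normalized counts in saline and from 6676 to 22042 in ketamine (log2 fold change -1.08, adjusted p = 0.784), and Adcy8 from 604 to 706 and from 722 to 930 (0.24, adjusted p = 0.999).

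Over the 12 regulators of receptor signalling, the median log2 fold change was -0.08. Rgs9, a GTPase-accelerating protein abundant in the striatum, stood at 278, 252 and 305 normalized counts in saline and 3737, 2249 and 287 in ketamine, so mouse 9 lay within the saline range. Its log2 fold change was 2.27 (limma, unadjusted p = 0.0313, adjusted p = 0.788; DESeq2, adjusted p = 0.0853), and the striatal list was also highest in mice 3 and 5. Arrb2, which uncouples the receptors, gave -0.13 and Rgs4 gave -0.31. The receptor kinase Grk2, with groups that did not overlap, ran from 6816 to 8025 normalized counts in saline and from 5605 to 6771 in ketamine (-0.33, adjusted p = 0.865).

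Of 11 transcription factors known to act at the Penk and Pdyn genes, 9 were above 0 and 2 below, with a median log2 fold change of 0.22. Fos, an early response gene, stood at 141, 409 and 752 normalized counts in saline and 603, 1086 and 1100 in ketamine, so mouse 3 lay below saline mouse 10. Its log2 fold change was 1.35 (limma, unadjusted p = 0.0514, adjusted p = 0.865). Fosl2, named because its groups did not overlap, ran from 550 to 636 normalized counts in saline and from 650 to 1236 in ketamine (0.57, adjusted p = 0.851). Creb1, the cAMP response factor, gave -0.01 and Kcnip3, the calcium-sensing repressor of Pdyn, gave 0.13. Of the 5 melanocortin receptors, whose ligands come from Pomc, 2 were tested, and Mc4r stood at 43.1, 50.2 and 79.1 normalized counts in saline and 89.1, 70.6 and 44.4 in ketamine (log2 fold change 0.23).

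**Figure D5:**
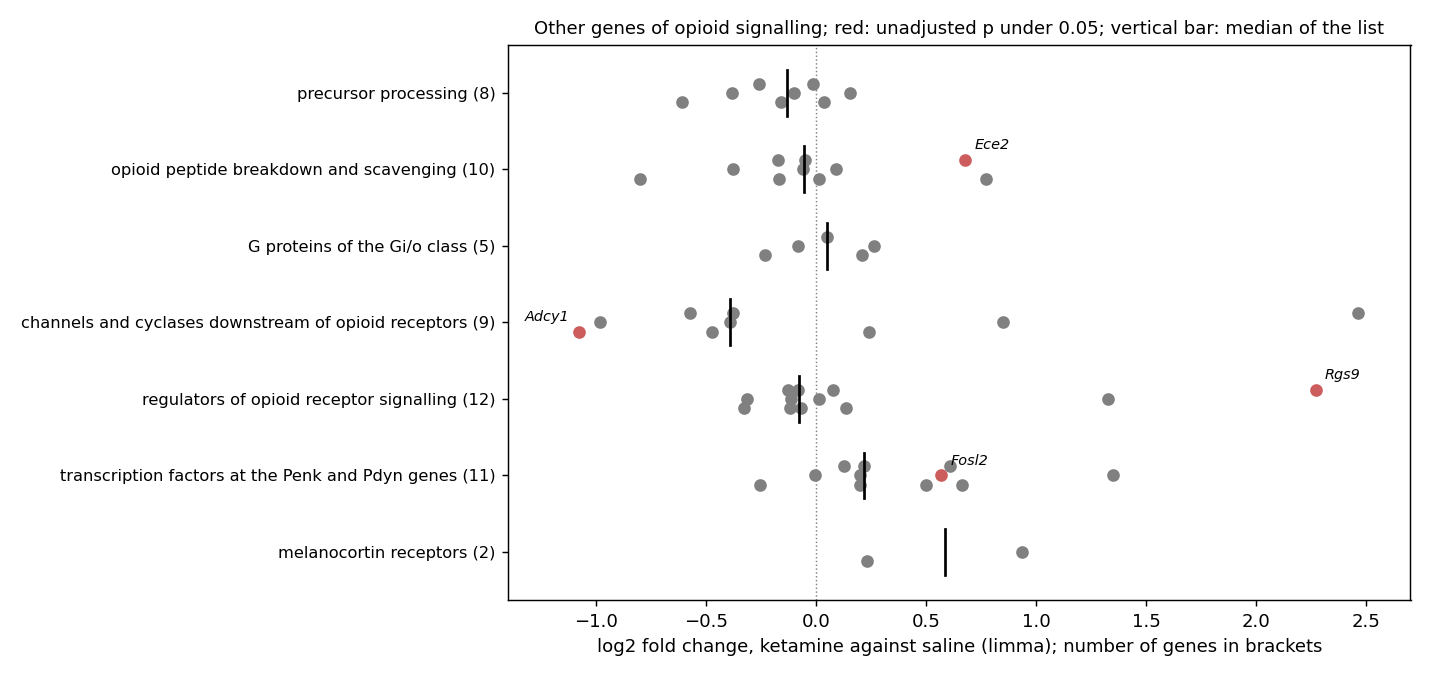
Log2 fold change, ketamine against saline, of the 57 tested genes in 7 lists of opioid signalling (one point per gene), with the median of each list as a vertical bar and unadjusted p under 0.05 by limma in red. The medians lie between -0.39 and 0.58, and 4 genes are red, of which none passed adjustment over all genes.

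The remaining marker lists bear on which tissue each library held. The median log2 fold change of the 12 cortical excitatory markers was -0.49, with 3 above 0 and 9 below. DESeq2 called 1 of these markers lower, against 0.229% of all genes tested. Their summed level was 52287 to 73421 normalized counts in saline and 37544 to 60374 in ketamine. Markers of claustrum and layer 6b, where Pdyn is also expressed, had a median of 0.35 over 10 genes and summed levels of 3547 to 5573 and 4987 to 5355, and saline mouse 10 was the highest mouse. Of this list, Nr4a2 was highest in saline mouse 10, at 890 normalized counts, whereas Gnb4 followed Pdyn closely (r = 0.989 over 6 mice). The mean log2 level of the whole list did not follow Pdyn, with r = 0.013 (Spearman's rho -0.20). For the striatal list, r with Pdyn was 0.854 (Spearman's rho 0.657). The 14 interneuron markers had a median of 0.21 and summed levels of 39681 to 42920 and 41651 to 61364. Of these, 6 lay wholly higher in ketamine, among them Gad1, Gad2 and Slc32a1 of inhibitory neurons in general, and 2 wholly lower (5.69% and 4.66% of all genes tested). DESeq2 called Ndnf higher and Pvalb lower, all of these named after their values were seen. Saline mouse 10, the lowest mouse for Penk and Pdyn, had a summed oligodendrocyte level of 375410 normalized counts, against 43443 to 159720 in the other mice. Choroid plexus markers were also highest in that mouse (3143 against 72.8 to 776), while astrocyte (73973 to 117100) and microglial markers (6930 to 8049) varied less. The part of these lists in the opioid values was not tested.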

How the data were processed

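PLc RNA from 3 saline mice and 3 ketamine mice was analysed, with groups and mouse numbers taken from the sample titles. The authors aligned reads to mm9 with TopHat2 2.0.11 per the labels, obtained gene counts with HTSeq, and deposited a signal for each gene, namely counts divided by a DESeq2 size factor for each library. The annotation and strand setting are not given in the sources used here. In each library 100% of low values were multiples of the value of 1 read within 0.1 reads, so reads were recovered, with 0.906 to 1.10 normalized counts per read. Total reads of 26273436 to 32643726 set the depth.

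Log2(normalized count + 1) was fitted by limma 3.58.1 (R 4.3.3) with a variance trend, for genes whose mean reached 10 normalized counts, at an adjusted p threshold of 0.05. Changes of low genes are understated on this scale. edgeR 4.0.16 and DESeq2 1.42.0 were run on the recovered reads as alternatives, with 40 genes given no adjusted p by DESeq2. The deposited unit is not a raw count, so limma was the main test although the paper's methods used DESeq2. The fits were also run on simulated reads with the same spread setting for every gene. That run checks the code only and does not tell which fit suits these mice. Single values were compared by exact two-sided permutation. The labels do not say whether mice were independent in other respects, such as litter, so p-values measure the spread between these samples.

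Members and lists were chosen with earlier results of these data known. Named genes were all members, pathway genes called by a tool or fixed by function, the 3 genes most alike to each member, and a few markers. Genes outside this rule are marked as such. List symbols were matched by name and older symbols. Exon lengths, positions and coding sequences came from GENCODE M1 on mm9. Alternatives were 2 other pseudocounts, 2 filters, 2 scalings, no trend, both count tests, each mouse left out, and ketamine mice 3 and 5 left out together. The ratio of Penk to Pdyn and the share of genes without overlap were added after the data were seen. Promoter and protein sequences were not used here.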

Additional observations from a re-analysis of the deposited data

How the results depend on the processing

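No paired analysis was possible because the 2 groups share no mouse numbers. The count of genes called was 0 by limma, 182 by DESeq2, and 0 to 1 with a mouse left out, namely Trh without ketamine mouse 5 and Cdhr1 without ketamine mouse 9. For Penk, the log2 fold change stayed above 0 under all 16 alternatives. DESeq2 alone put it past the threshold, at 2.56, and its adjusted p ran from 1.24e-06 to 1.0. With each mouse left out, the log2 fold change ran from 1.89 to 2.81 for Penk, 0.25 to 1.14 for Pdyn, -0.22 to 0.13 for Pomc, 0.11 to 0.62 for Pnoc, -0.0196 to 1.49 for Oprm1, -1.01 to 0.0314 for Oprd1, -0.13 to 1.74 for Oprk1 and -0.19 to 0.0812 for Oprl1. With mouse 9 as the only ketamine mouse, which assumes that it varies like the saline mice, the sign turned for Pdyn (-0.25), Pomc (0.33), Oprm1 (-0.91) and Oprk1 (-1.31). edgeR turned it for Pomc (0.0088) and Oprl1 (0.012), and DESeq2 for Oprl1 (0.0012). The cause of these changes was not tested. The log2 ratio of Penk to Pdyn kept its sign in each leave-out. Other scalings shifted the median of all genes by at most 0.01. With 3 mice a group, an exact test cannot pass 0.1. Oprm1 and Pomc could not be fitted under the filter of 100 normalized counts. Depth limits Oprm1, at 17 to 134 reads, and Pomc, at 33 to 56 reads.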
